A study of Homo sapiens with 4 samples.

Results

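The AP-1 transcription factor genes and other immediate early genes were followed in the human breast epithelial line MCF10A, which does not form tumors and was either left as wild type or made to overexpress HSF1, the main heat shock transcription factor. The members were 10 genes given by name, FOS, FOSB, FOSL1, FOSL2, JUN, JUNB, JUND, ATF3, EGR1 and IER3, out of 63856 genes in the count table. RNA-seq was performed on 2 biological replicates of wild type cells and 2 of HSF1-pLVX cells, which carry a lentiviral pLVX-Puro insertion of the HSF1 coding sequence and were selected with puromycin. For this line the study's methods list DMEM/F12 medium with horse serum, insulin, hydrocortisone and EGF. Empty-vector (pLVX) cells were not analysed here, so an effect of HSF1 cannot be told apart from one of transduction, of puromycin or of separate culture. Whether the HSF1-pLVX cells are a pool or a clone is not given in the sources used here. The study calls its replicates biological, but whether they were separate cultures is not given in the sources used here, so the p-values measure the spread between these libraries, which may be technical.

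AP-1 is a dimeric transcription factor that binds DNA through a basic region and a leucine zipper (bZIP). FOS proteins cannot form stable homodimers and pair with JUN proteins, while JUN proteins can also pair with one another, so the activity of AP-1 depends on which subunits a cell makes. Most of these genes are immediate early genes: growth factors such as EGF and many stresses induce them within minutes through MAP kinases and without new protein synthesis, and their mRNAs are short-lived. In mammary and other epithelial cells AP-1 is known for its part in proliferation, migration and wound responses.

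The libraries held between 18688109 and 24184285 counts. HSF1 itself, the introduced gene, was at 195 ± 7.94 CPM in wild type and 991 ± 11.5 CPM after transduction (SD, n = 2 each), where CPM are counts scaled to a common library size after TMM normalization. The difference was 5.08-fold (adjusted p = 1.14e-10, quasi-likelihood test of edgeR, with Benjamini-Hochberg adjustment over 15830 tested genes). By the same test, 65.9% of all tested genes were called at an adjusted p of 0.05, 32.7% as higher and 33.2% as lower in HSF1-pLVX cells, and 83.1% had groups that did not overlap. The summed level of 6 basal mammary markers was between 13703 and 14143 CPM in wild type and between 7718 and 8538 CPM in HSF1-pLVX libraries, and that of 6 luminal markers was between 5058 and 5159 CPM and between 836 and 1034 CPM. KRT5, TP63 and ITGA6 were called higher among the basal markers and the other 3 lower, and of the luminal markers all but ESR1 were called lower. PTPRC, a defining leukocyte marker, was at 0 counts in every library, and the leukocyte list summed to at most 0.484 CPM. The 7 fibroblast markers summed to 7.78 and 10.8 CPM in wild type and to 14.9 and 13.9 CPM in HSF1-pLVX libraries, without overlap. Of these, COL1A1 made 7.19 and 10.4 CPM and then 10.7 and 9.21 CPM, which overlapped (adjusted p = 0.353, edgeR). DCN made 0.0533 and 0.161 CPM in wild type and 3.74 and 4.38 CPM in HSF1-pLVX libraries. The 4 endothelial markers summed to 3.04 and 1.94 CPM in wild type and to 13.1 and 14.3 CPM in HSF1-pLVX libraries. KDR made 12.3 and 12.9 CPM of the latter. Mitochondrial transcripts took between 7.54 and 8.48% of the counts in wild type and between 9.84 and 11% in HSF1-pLVX libraries. The part of these differences in the results was not tested.

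The AP-1 genes changed in both directions. FOS, FOSL1, JUNB and EGR1 were higher in HSF1-pLVX cells, FOSL2, JUN, JUND and ATF3 were lower, FOSB was not called, and IER3 could not be measured. In all, 9 of the 10 genes passed the filter on low counts, and 8 of these were called, against 65.9% of all genes. Only EGR1 and ATF3 were past 2-fold, in opposite directions, where 14.9% of all genes were called and past 2-fold higher and 14% lower. The median log2 fold change of the 9 tested members was -0.75, which is the value of FOSL2, against 0.02 over all tested genes. Of the 9, 4 lay above 0 and 5 below, with the uncalled FOSB among the 5. With 2 libraries in each group, the smallest p that an exact permutation test can reach is 0.33. Each edgeR test borrows most of its spread from other genes (11.9 prior degrees of freedom against 2 residual ones). In bulk RNA, fewer expressing cells and less RNA per cell cannot be told apart.

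**Figure D1:**
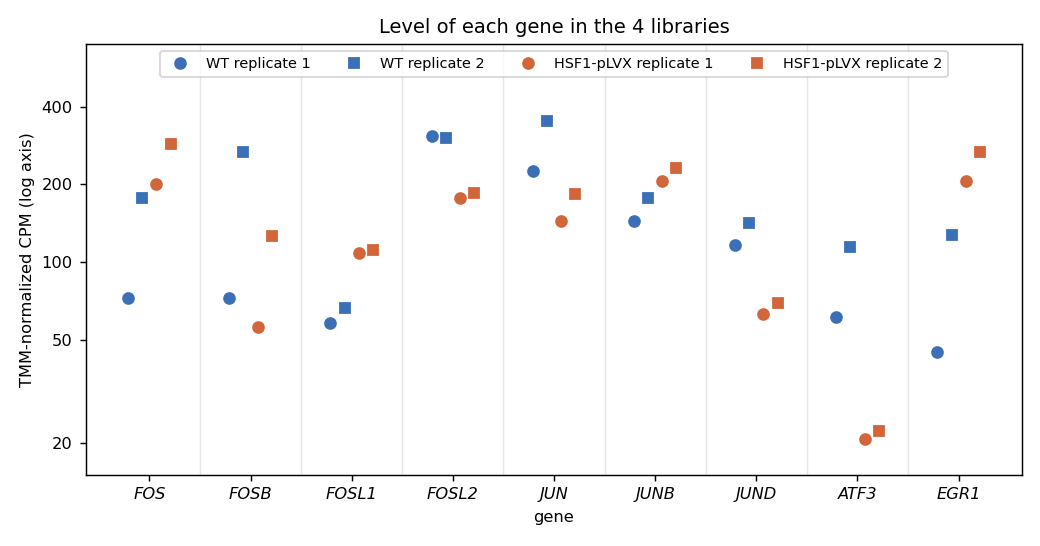
Level of the 9 tested genes in each library, in TMM-normalized CPM on a log axis, with wild type in blue and HSF1-pLVX in orange, circles for replicate 1 and squares for replicate 2. The groups separate in every gene except FOSB, and squares lie far above circles for FOSB, FOS and EGR1 in wild type cells.

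In the FOS family, FOS rose, FOSL1 rose with little spread and FOSL2 fell with little spread. FOS (ENSG00000170345.9, chromosome 14 of hg38, 75278774 to 75282230, plus strand), the founding member and a classical serum-induced gene, was at 72.3 and 176 CPM in wild type replicates 1 and 2 and at 201 and 288 CPM in HSF1-pLVX replicates 1 and 2. Both HSF1-pLVX libraries were above both wild type libraries, although the wild type libraries were more than 2-fold apart (ratio 2.44). The log2 fold change was 0.97 (95% interval 0.39 to 1.56, adjusted p = 0.00589 in edgeR's quasi-likelihood test). It was 0.48 without wild type replicate 1, 1.74 without wild type replicate 2 and 0.70 without HSF1-pLVX replicate 2, where the call was lost. The call was also lost in DESeq2's Wald test (adjusted p = 0.241).

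FOSL1 (ENSG00000175592.8, chromosome 11, 65892049 to 65900573, minus strand), which encodes FRA-1, a FOS protein without the strong activation domain of FOS, was at 58.1 and 66.6 CPM in wild type and at 108 and 112 CPM in HSF1-pLVX libraries. The groups were well apart, and the log2 difference was 0.82 (standard error 0.0904, adjusted p = 1.88e-06, edgeR). FOSL2 (ENSG00000075426.11, chromosome 2, 28392448 to 28417312, plus strand), which encodes the related FRA-2, was at 308 and 302 CPM in wild type and at 177 and 186 CPM in HSF1-pLVX libraries. It went the other way, and the log2 difference was -0.75 (standard error 0.0887, adjusted p = 3.71e-06, edgeR). These genes were the steadiest between replicates: the ratio of replicate 2 to replicate 1 was between 0.980 and 1.15 for FOSL1 and FOSL2 in both variants.

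FOSB (ENSG00000125740.13, chromosome 19, 45467995 to 45475179, plus strand), the paralog of FOS, was at 72.8 and 268 CPM in wild type and at 56.3 and 127 CPM in HSF1-pLVX libraries. The groups overlapped, since wild type replicate 1 was below HSF1-pLVX replicate 2. The log2 fold change of -0.90 had a 95% interval of -1.80 to -0.0024 and did not pass after adjustment (adjusted p = 0.0721, edgeR). Without wild type replicate 2 its sign turned, to 0.31 (adjusted p = 0.0146), and without wild type replicate 1 it was -1.54 and called. Both of these fits took their whole spread from other genes.

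**Figure D2:**
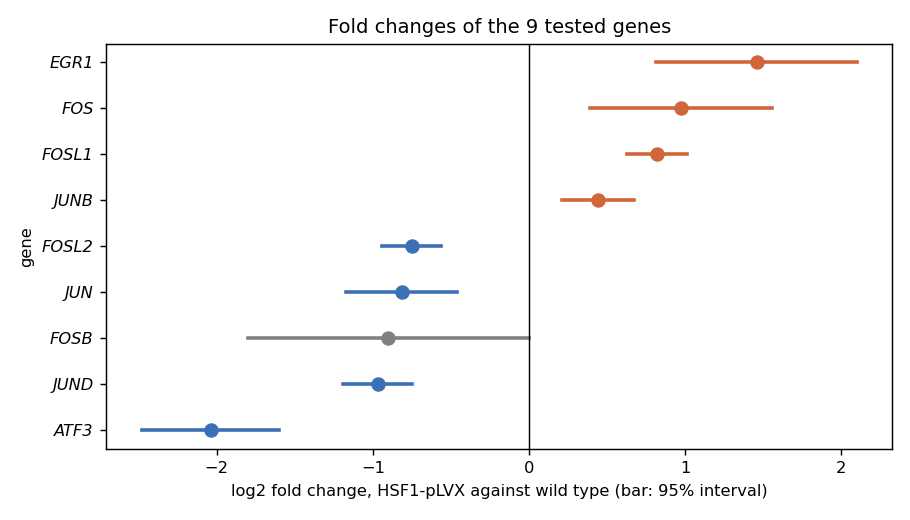
Log2 fold change of the 9 tested genes, HSF1-pLVX against wild type, with the 95% interval from edgeR's quasi-likelihood fit as a bar. Orange genes were called higher, blue genes lower, and FOSB, in gray, was not called; the intervals of FOSL1 and FOSL2 are the narrowest and that of FOSB the widest.

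In the JUN family, JUNB rose while JUN and JUND fell. JUN (ENSG00000177606.6, chromosome 1, 58780788 to 58784327, minus strand), the main partner of FOS and the substrate of JUN N-terminal kinases, was at 226 and 353 CPM in wild type and at 144 and 184 CPM in HSF1-pLVX libraries. The groups did not overlap and the log2 fold change was -0.82 (standard error 0.165, adjusted p = 0.000546, edgeR). It was -0.48 without wild type replicate 2 and -0.99 without HSF1-pLVX replicate 2, although the call was lost in the latter fit. JUND (ENSG00000130522.5, chromosome 19, 18279760 to 18281622, minus strand), a JUN protein that is made constitutively in many cells, was at 116 and 142 CPM in wild type and at 63.1 and 69.3 CPM in HSF1-pLVX libraries. All HSF1-pLVX values were lower, and the log2 difference was -0.97 (standard error 0.103, adjusted p = 1.3e-06, edgeR).

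JUNB (ENSG00000171223.5, chromosome 19, 12791496 to 12793315, plus strand), a weaker activator that can oppose JUN at some promoters, was at 144 and 177 CPM in wild type and at 206 and 231 CPM in HSF1-pLVX libraries. Its rise was the smallest of the called changes, at 0.44 on the log2 scale (standard error 0.107, adjusted p = 0.00225, edgeR). Without HSF1-pLVX replicate 2 the rise was 0.37 and was not called. JUNB shares 259 bp of exon sequence with HOOK2 on the other strand. HOOK2 itself had 908 and 955 counts in wild type and 2011 and 1685 in HSF1-pLVX libraries, and because the strand setting of the counting is not given in the sources used here, reads of this stretch cannot be assigned with certainty. Apart from IER3, no other member shared exon bases with another gene of the table.

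Divided by exon length (TMM-normalized RPKM), the make-up of both families differed between the variants. JUNB took 38.6 and 35.6% of the summed JUN family level in wild type and 60.2 and 58.7% in HSF1-pLVX replicates 1 and 2, while JUN went from 31.0 and 36.4% to 21.7 and 24.1% and JUND from 30.4 and 27.9% to 18.0 and 17.2%. No library of a variant reached into the range of the other for any of these shares. In the FOS family, FOS took 20.5 and 30.2% in wild type and 40.2 and 45.2% in HSF1-pLVX libraries, and FOSL2 fell from 39.4 and 23.4% to 16.0 and 13.2%. FOSL1 took 28.2 and 19.6% in wild type and 37.2 and 30.1% in HSF1-pLVX libraries, and FOSB 12% and 26.8% and then 6.58 and 11.6%. The summed levels overlapped between the variants in both families: 109 and 180 RPKM against 154 and 197 RPKM for the FOS family, and 205 and 273 RPKM against 188 and 216 RPKM for the JUN family. With 2 libraries in a group no test was made of the shares, which follow RNA and not protein.

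**Figure D3:**
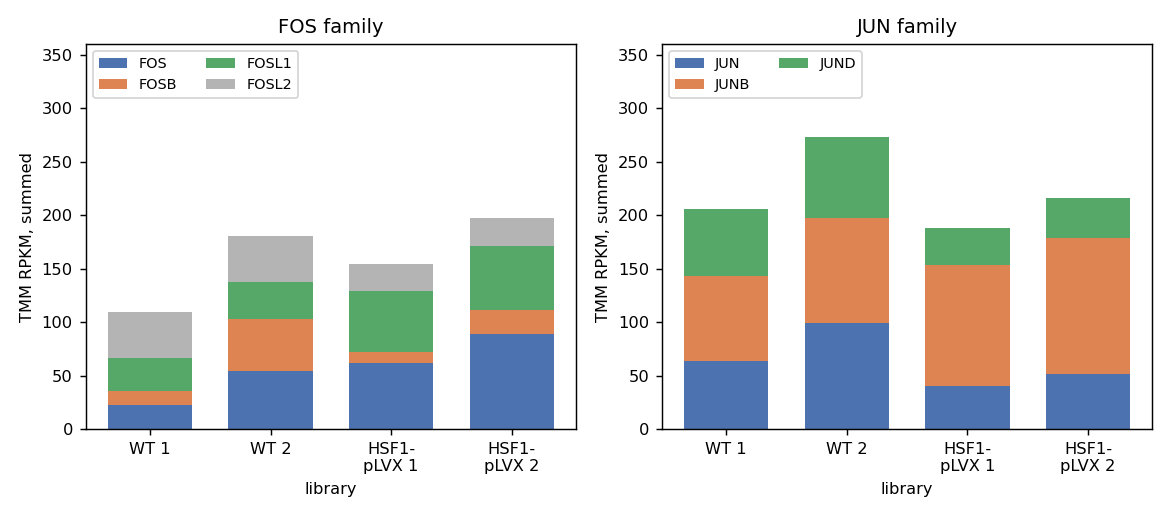
Summed TMM-normalized RPKM of the FOS family (left) and the JUN family (right) in each library, stacked by gene. The bars of the variants overlap in height, while the JUNB segment reaches 58.7 to 60.2% of the bar in HSF1-pLVX libraries and 35.6 to 38.6% in wild type.

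EGR1 and ATF3, which are not FOS or JUN genes, moved most and in opposite directions. EGR1 (ENSG00000120738.7, chromosome 5, 138465490 to 138469315, plus strand), a zinc finger factor that growth factors induce together with FOS, was at 44.8 and 127 CPM in wild type and at 205 and 268 CPM in HSF1-pLVX libraries. Every HSF1-pLVX value was above every wild type value, and the log2 fold change was 1.46 (95% interval 0.82 to 2.10, adjusted p = 0.000622, edgeR). It ranged from 0.91 without wild type replicate 1 to 2.38 without wild type replicate 2. The call was lost without HSF1-pLVX replicate 2 (log2 fold change 1.27) and in DESeq2's Wald test (adjusted p = 0.0863).

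ATF3 (ENSG00000162772.16, chromosome 1, 212565334 to 212620777, plus strand), a stress-induced bZIP factor that can pair with JUN proteins and often represses, was at 61.3 and 115 CPM in wild type and at 20.6 and 22.2 CPM in HSF1-pLVX libraries. The means were 88.0 ± 37.8 CPM in wild type and 21.4 ± 1.14 CPM in HSF1-pLVX cells (SD, n = 2 each), so the groups were far apart. The log2 fold change was -2.04 (standard error 0.205, adjusted p = 7.14e-07, edgeR). Without each library in turn, it lay between -2.41 and -1.54. The fits without a wild type replicate took their whole spread from other genes. ATF3 was the only member that passed a test against a 2-fold change (glmTreat of edgeR, adjusted p = 0.000153).

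IER3, an early response gene that protects some cells from death, was listed at 0 counts in all 4 libraries (ENSG00000137331.11, chromosome 6, 30743199 to 30744554, minus strand). Its 5 copies on alternative contigs of the same region held at most 1 count in any library. The normalized table has 6 rows under this symbol. On chromosome 6, 149 genes are listed 5 or more times in that table, and 123 of them had 0 counts in all libraries, among them ABCF1, a translation factor gene that cells generally express. Of 752 chromosome 6 genes listed once, 114 were at 0. The 0 of IER3 therefore carries no information on whether the gene was expressed, and no fold is given.

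By the criterion of the study, a gene counts as changed when its signal ratio exceeds 2, or is under 0.5, in both replicates. Here the ratio was 2 to the power of the difference between the deposited log2-like values within each replicate. Of the 9 measured genes, EGR1 passed the criterion upwards, with ratios of 4.38 and 2.08 within replicates 1 and 2. ATF3 passed it downwards, with ratios of 0.335 and 0.198. Over all rows of the table, 5% passed upwards and 6.42% downwards. FOS passed in replicate 1 alone (2.67 and 1.62), and FOSB and JUND in replicate 2 alone (0.752 and 0.472 for FOSB, 0.528 and 0.487 for JUND). The ratios of FOSL1, FOSL2, JUN and JUNB lay between 0.52 and 1.79 and were on the same side of 1 in both replicates.

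Promoter windows from RefSeq, 250 bases before to 50 after a start site on GRCh38.p14, were found for 8 of the 10 genes (9 windows, since ATF3 has 2); FOSL1 and IER3 had none in the table. The stretches shown were chosen for full matches, in capitals, to the CArG box or to CRE-like letters, known binding motifs of upstream factors. Matches to the other motifs named below are not shown. The CArG box (CC, 6 bases of A or T, GG), bound by SRF, was in EGR1. The CRE-like letters TGACNTCA, bound by CREB, ATF and JUN dimers, were in ATF3, JUND and JUN. Neither was matched in the windows of FOS, FOSB, FOSL2 and JUNB, which include genes that rose and genes that fell. All stretches shown are written 5′ to 3′ on the strand of the gene. The JUN stretch lies before the RefSeq start but inside the exon of the count table, so only 30 bases are shown.
EGR1, chr5:138465349-138465428, 130 to 51 bases upstream: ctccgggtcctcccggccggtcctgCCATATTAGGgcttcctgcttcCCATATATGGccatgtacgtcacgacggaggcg
ATF3, chr1:212565261-212565320, 146 to 87 bases upstream: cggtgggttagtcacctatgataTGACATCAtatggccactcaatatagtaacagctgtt
JUND, chr19:18281786-18281845, 223 to 164 bases upstream: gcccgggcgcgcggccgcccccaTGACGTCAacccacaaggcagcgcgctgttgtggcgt
JUN, chr1:58784096-58784125, 78 to 49 bases upstream: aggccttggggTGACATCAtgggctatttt

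Searched on both strands, TGACNTCA was in 3 of the 9 windows and in 7.69% of 34796 promoter windows of all genes, and the CArG box in 1 window, that of EGR1 with 2 matches, and in 1.3% of all. The AP-1 site TGANTCA was in 1 window (FOSL2; 7.73% of all), and the EGR site GCGNGGGCG in 1 (EGR1; 9.43% of all). A heat shock element of 3 alternating units (GAA, TTC and GAA with 2 bases between them), the kind of sequence that HSF1 binds, was in none of the 9 windows and in 0.491% of all. These motifs did not overlap one another in the member windows. A match is a description of letters and not a bound site, and a missing match says only that the letters are not in these 300 bases.

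The libraries with the same replicate number lay on the same side for most of these genes. In wild type cells, replicate 2 exceeded replicate 1 by 3.68-fold for FOSB, 2.84-fold for EGR1, 2.44-fold for FOS, 1.87-fold for ATF3 and 1.56-fold for JUN. In HSF1-pLVX cells the same ratios were 2.25 for FOSB, 1.30 for EGR1, 1.44 for FOS, 1.08 for ATF3 and 1.28 for JUN. FOSB had the largest excess of replicate 2 over replicate 1 in both variants among 9672 genes with a mean above 8 CPM; EGR1 was rank 2 and FOS rank 6 in wild type, and they were rank 55 and 15 in HSF1-pLVX cells. Replicate 2 was higher in both variants for 8 of the 9 members, all but FOSL2, and for 23 of 30 other immediate early genes, and lower in both for 0 of either list, against 3544 higher and 3626 lower of 15830 genes overall. Growth state or handling of the cultures was not recorded in the labels and its part in these values was not tested.

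**Figure D4:**
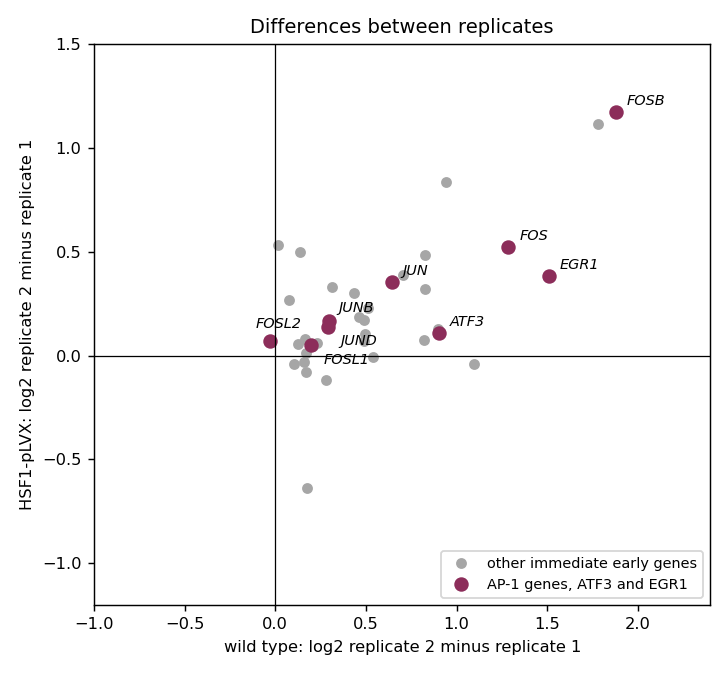
Log2 difference between replicate 2 and replicate 1 in wild type (horizontal axis) and in HSF1-pLVX cells (vertical axis) for the 9 tested genes and for 30 other immediate early genes in gray. FOSB lies farthest out, at 1.88 and 1.17, and 8 of the 9 genes and 23 of the 30 others lie above 0 on both axes.

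Other immediate early genes were taken as a list of 32, of which 30 were tested: 9 rose, 13 fell and 8 did not pass, so 73.3% were called against 65.9% of all genes, with a median log2 fold change of -0.23. Relatives and regulators of EGR1 were among those that rose. EGR3 went from 1.82 ± 0.619 to 15.1 ± 2.86 CPM (log2 fold change 3.04, adjusted p = 2.09e-08, edgeR), and NAB1 and NAB2, corepressors that bind EGR proteins, had log2 fold changes of 1.06 and 1.05. MYC, a growth-promoting transcription factor, rose from 85.2 ± 6.64 to 530 ± 8.64 CPM (log2 fold change 2.64, adjusted p = 4.26e-11, edgeR). Among those that fell, CYR61 and CTGF, matricellular protein genes now named CCN1 and CCN2, had log2 fold changes of -3.06 and -1.86, PTGS2, which encodes cyclooxygenase-2, had one of -2.26, and GADD45B, a stress-induced gene, had one of -1.76. DUSP1, a phosphatase that turns off MAP kinases and the most abundant of the list per length, fell from 316 ± 134 to 170 ± 10.7 CPM (log2 fold change -0.89, adjusted p = 0.000941, edgeR). The balance of directions depended on the libraries: 9 were called higher and 18 lower without wild type replicate 1, 12 and 9 without wild type replicate 2, 9 and 10 without HSF1-pLVX replicate 1, and 7 and 8 without HSF1-pLVX replicate 2.

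Of 16 other bZIP genes whose products pair with AP-1 proteins or bind related sites, 14 were tested, 4 rose, 6 fell and 4 did not pass (71.4% called). JDP2, a repressor that pairs with JUN proteins, rose from 8.62 ± 1.45 to 22.4 ± 3.95 CPM (log2 fold change 1.37, adjusted p = 1.74e-06, edgeR), and ATF1, ATF2 and NFE2L2 rose by log2 fold changes of 0.81, 0.65 and 0.55. Among those that fell, CREM and MAFG had log2 fold changes of -0.74 and -0.72, and NFE2L1, the most abundant per length, had one of -0.58. The median of the 14 was -0.25.

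Of 23 kinases and SRF-linked factors that act upstream, 22 were tested, 5 rose, 9 fell and 8 did not pass (63.6% called, median -0.15). MAPK3, which encodes the kinase ERK1, fell by 1.27 on the log2 scale, and MAPK7 and RPS6KA2 by 0.67 and 1.22. ELK4 and ELK1, partners of SRF at CArG boxes, rose by 0.55 and 0.34, RPS6KA5, which encodes the kinase MSK1, by 2.50 from 1.74 ± 0.101 CPM, and MAPK10 by 0.51 from 3.27 ± 0.327 CPM. MAP2K2, which encodes MEK2 and was the most abundant per length, had a log2 fold change of 0.17 (standard error 0.0922, adjusted p = 0.122, edgeR), and SRF one of 0.17 (adjusted p = 0.0848). RPS6KA1 was listed at 0 counts in every library.

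Of 30 genes known as AP-1 targets, 27 were tested, 10 rose, 15 fell and 2 did not pass (92.6% called, against 65.9% of all genes, median -0.81). Of these 27 genes, 7 were called past 2-fold higher and 12 past 2-fold lower. Of all 15830 tested genes, 2358 (14.9%) and 2218 (14%) were. This list, like the others, was chosen with earlier results of these data known. IL1B, a pro-inflammatory cytokine, rose from 18.9 ± 5.13 to 258 ± 12.3 CPM (log2 fold change 3.77, adjusted p = 4.05e-11, edgeR), and MMP9, a gelatinase, and VEGFA, the angiogenic growth factor, rose 4.91-fold and 3.82-fold. CCND1, which encodes cyclin D1, fell from 1912 ± 17.8 to 223 ± 32.9 CPM (log2 fold change -3.10, adjusted p = 6.56e-11, edgeR). FST, an activin inhibitor, and IVL, a cornified envelope protein, had log2 fold changes of -3.76 and -2.95. KRT17, a basal keratin and the most abundant of the list per length, had one of -2.56. IL6, a cytokine, had one of -3.28, from only 57 and 122 counts in wild type and 12 and 10 in HSF1-pLVX libraries. DCN, also one of the fibroblast markers, was at 1 and 3 counts in wild type and 94 and 87 in HSF1-pLVX libraries, too few for a fold on the wild type side. The collagenase gene MMP1, a classical AP-1 target, had at most 1 count in any library.

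**Figure D5:**
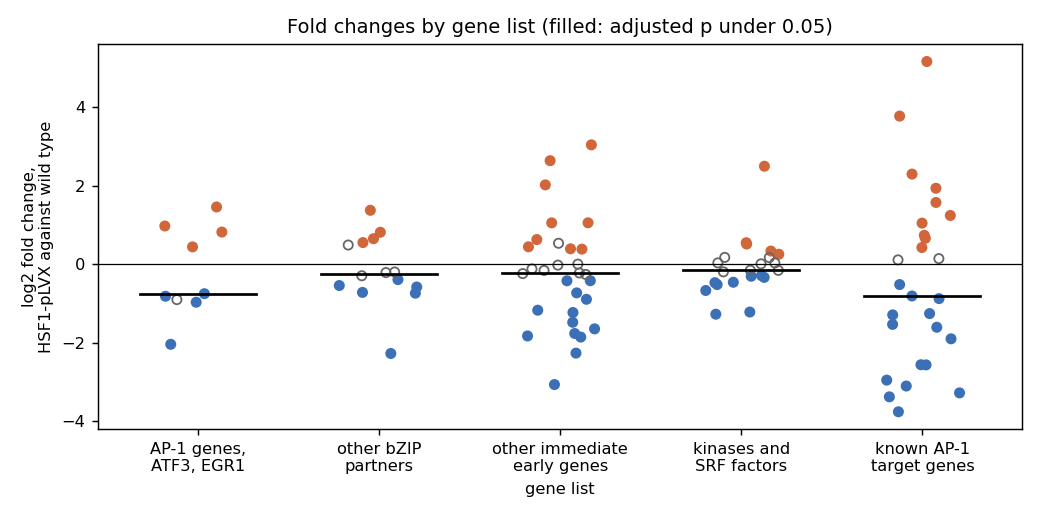
Log2 fold change, HSF1-pLVX against wild type, of each tested gene in 5 lists, with the median as a black line. Filled points passed an adjusted p of 0.05 (orange higher, blue lower), open points did not; every list holds genes in both directions, and the medians run from -0.81 for AP-1 targets to -0.15 for kinases and SRF factors.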

How the data were processed

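RNA-seq libraries, 2 of wild type and 2 of HSF1-pLVX MCF10A cells, were analysed, grouped by the variant and replicate number in their labels. The authors deposited raw counts per gene of GENCODE release 26, made from paired-end reads of 76 bp aligned to hg38 with HISAT2 2.0.5, processed with SAMtools 1.13 and counted with featureCounts 1.6.5. The counting settings are not given in the sources used here. The exon length in bp is another value per the file headers. The authors also deposited log2-like values normalized with DESeq2 1.32.0, which DESeq2's blind variance-stabilizing transformation gave to within 2.29e-06 for the 9 measured members, and which served here for the ratio criterion of the study alone.

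Differences in counts were assessed by edgeR 4.0.16 under R 4.3.3 (TMM, filterByExpr, quasi-likelihood test without a replicate block, Benjamini-Hochberg adjustment over 15830 genes, threshold 0.05). CPM and RPKM were computed from these counts. Standard errors were taken from the fold change and the F statistic. Replicates differed beyond sampling noise (chi-square per degree of freedom 4.39 and 5.30). The scripts were tested on simulated data. Alternatives were DESeq2 1.42.0, other normalizations, no filter, the replicate block, glmTreat and each library left out. Of each list, up to 4 called genes in each direction by fold change, with groups apart and 50 counts in the higher group, and the most abundant per length were named; SRF, RPS6KA1, MMP1, ABCF1, HOOK2 and the marker genes were named after their values were seen. Some items that this rule names are not reported here. The members and lists were chosen with earlier results of these data known.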

Additional observations from a re-analysis of the deposited data

How the results depend on the processing

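Of 99 values of the 9 genes under alternatives, 1 changed sign, FOSB without wild type replicate 2 (log2 fold change 0.31). With the replicate block, FOSB was called (-0.74, adjusted p = 8.36e-11, edgeR), as it was with no filter on low counts (-0.90, adjusted p = 1.41e-16, edgeR); both fits took their spread wholly from other genes, since the estimated prior degrees of freedom were infinite. The block gave 4 members higher and 5 lower and changed no other member's call. Same-numbered libraries did not deviate together over all genes (correlation -0.01 over 15830 genes, -0.11 over 9672 above 8 CPM), although over the 9 members, which share the 4 libraries, it was 0.84, and neither the labels nor the methods say what a number marks. A crossed pairing, added after seeing the data, gave 4 and 5 members, and 5429 genes higher and 5487 lower. In DESeq2's Wald test FOS (0.95, adjusted p = 0.241) and EGR1 (1.44, adjusted p = 0.0863) were lost, which left 2 members higher, and 2 upstream kinases and factors were higher; the cause was not tested. Other scalings moved the median of all genes by at most 0.09 and no member's call.

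Against a 2-fold change (glmTreat of edgeR), a stricter question by construction, 0 members were higher and 1 was lower, with FOS at 0.97, FOSL1 at 0.82, FOSL2 at -0.75, JUN at -0.82, JUNB at 0.44, JUND at -0.97 and EGR1 at 1.46 no longer called. At an unadjusted p under 0.05, glmTreat gave 1 member higher and 1 lower, DESeq2 3 and 4, and edgeR's quasi-likelihood test 4 and 5. Over all genes glmTreat called 1323 higher and 1495 lower, of the bZIP genes 1 and 1, of the other immediate early genes 2 and 6, of the kinases 1 and 2, and of the AP-1 targets 5 and 12.

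With each library left out, log2 fold changes lay between 0.48 and 1.74 for FOS, -1.58 and 0.31 for FOSB, -1.09 and -0.48 for JUN, 0.32 and 0.58 for JUNB, and 0.91 and 2.38 for EGR1. Between 1 and 5 members were called higher, between 8 and 18 other immediate early genes lower, and between 3 and 4 kinases higher. With ratios beyond 1.5, 3 members passed the study's rule upwards and 4 downwards. Shares of CPM not divided by length were, in wild type and HSF1-pLVX cells, 17.9 and 38.7% for FOS, 9.78 and 17.8% for FOSL1, 48.7 and 29.3% for FOSL2, 49.4 and 36.5% for JUN, 28.0 and 48.7% for JUNB and 22.6 and 14.8% for JUND, and 14.1% for FOSB in HSF1-pLVX cells, so JUN led its family in wild type on that scale.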
